A study of Mus musculus with 12 samples.

Results

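Cxcl1, a chemokine that draws neutrophils, was 6.76-fold lower in macrophages labelled as Rasgef1b knockout than in wild-type macrophages after 4 h of R848, while the arrays of both genotypes overlapped for its neighbours Cxcl2 and Cxcl3. The comparison is of 6 arrays among the 12 of the study, chosen by their sample titles: 3 arrays of knockout cells with R848 and 3 of wild-type cells with R848. Every row with 1 gene symbol entered, and 1 row was kept for each symbol. In all, 19 of 14079 tested genes (0.135%) passed the threshold, an adjusted p under 0.05, with 8 higher (0.0568%) and 11 lower (0.0781%) in knockout cells.

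The cells were macrophages derived from bone marrow and grown with L929-conditioned medium, which supplies the growth factor for macrophages. One group came from wild-type mice. The other came from Rasgef1b_fl/fl_vav-icre mice, labelled RasGEF1b knock-out, in which loxP sites flank part of Rasgef1b and Cre is driven by the Vav promoter, active throughout blood cell formation. Both groups received R848, and 2 further groups of 3 arrays, 1 of each genotype, received saline. The sources used here give neither strain nor age, nor a duration for saline. No group carries Cre alone or the loxP sites alone. The action of Cre itself, the loxP sites, genetic background and loss of Rasgef1b therefore cannot be told apart. Y-linked genes were well above background on all 12 arrays (Eif2s3y between 6.67 and 7.87) and Xist was not (between 2.87 and 3.22), so the cells of every array were male by these genes. Replicates are numbered in the titles, but nothing says that each is its own animal or culture. The p-values below therefore reflect the spread among these arrays alone, and it may be technical.

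R848 binds the endosomal receptor TLR7, which acts through the adaptor Myd88. This activates NF-kB and MAP kinases and induces cytokines, chemokines and interferon-stimulated genes. The Rasgef1b protein is an exchange factor that loads small GTPases of the Ras family with GTP, and Toll-like receptor signals raise its expression in macrophages. Levels are log2 intensities after RMA, on which 1 unit is a doubling, and all differences are knockout minus wild type unless stated. Over the tested genes, arrays of 1 group with R848 correlated at 0.9922 to 0.9964 and arrays of different genotype at 0.9895 to 0.9945. A row counts as dim below the highest filter value of the arrays, 4.35. Differences of dim rows are compressed by background signal.

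Cells of both genotypes carried a macrophage profile. The mean level of 25 macrophage identity genes lay between 9.23 and 9.27 on the wild-type arrays with R848 and between 9.26 and 9.34 on the knockout arrays. Of the markers of other lineages, Ly6g (highest value 3.36), S100a8 (3.89), Cd3e (4.04), Cd79a (3.74) and Ms4a1 (3.56) were dim on all 12 arrays. Others were above the dim limit on every array, among them the megakaryocyte marker Pf4 (9.56 to 9.86) and the dendritic cell marker Cd209a (8.59 to 9.44). So were Ighm (6.57 to 7.11), Csf3r (7.16 to 9.79), Nkg7 (5.66 to 5.85), Thy1 (5.10 to 5.56), Cd79b (4.96 to 5.46) and Cd4 (4.72 to 5.36). Further rows of Ighm had differences with R848 from -0.57 to 0.43. The numbers of tested markers were 4 of 12 for neutrophils, 4 of 12 for T and NK cells, 2 of 8 for B cells and 7 of 10 for fibroblasts and stroma, and none passed as different between genotypes; a part of other cells in the results was not tested. Tlr7, the receptor of the stimulus, had a difference of 0.14, the related receptor Tlr8 of 0.17 and the adaptor Myd88 of 0.07, none past the threshold.

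Rasgef1b itself, on chromosome 5, read 9.84, 9.84 and 9.69 on the wild-type arrays with R848 and 9.45, 8.60 and 9.36 on the knockout arrays. The groups did not overlap, and knockout replicate 2 was far below the other knockout arrays. The difference was -0.65 ± 0.21 (SE) and did not pass (limma adjusted p = 0.333). The two-sided exact permutation p was 0.1, the smallest that 3 against 3 arrays allow. Without knockout replicate 2, Rasgef1b differed by -0.39 (adjusted p = 0.842). With saline it read 9.03, 9.19 and 9.14 in wild type and 8.63, 7.88 and 8.72 in knockout. The saline groups did not overlap either, and knockout replicate 2 was again the lowest. The difference with saline was -0.71 and did not pass (limma adjusted p = 0.158). The exons removed, and the probes of this row that lie outside them, are unknown here, so the remaining signal does not check the label.

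The promoters of Cxcl1, Cxcl2 and Cxcl3 are shown because the 3 genes lie near each other on chromosome 5 and, of them, Cxcl1 alone passed the threshold. Each line gives the 150 bases before the annotated start from RefSeq, build GRCm38.p6, on the plus strand, at chr5:90891095-90891244, chr5:90903749-90903898 and chr5:90785951-90786100 in that order. Capitals mark the match to the kappaB motif, the binding pattern of NF-kB.
Cxcl1: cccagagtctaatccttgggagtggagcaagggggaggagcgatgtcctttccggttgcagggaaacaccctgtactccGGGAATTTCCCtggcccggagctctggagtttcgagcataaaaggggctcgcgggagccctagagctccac
Cxcl2: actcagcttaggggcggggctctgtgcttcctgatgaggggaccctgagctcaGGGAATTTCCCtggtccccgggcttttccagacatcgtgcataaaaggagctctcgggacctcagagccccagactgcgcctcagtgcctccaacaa
Cxcl3: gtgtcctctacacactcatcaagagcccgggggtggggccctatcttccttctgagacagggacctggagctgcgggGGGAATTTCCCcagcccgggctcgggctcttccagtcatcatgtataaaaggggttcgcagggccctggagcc
All 3 hold the same 11 letters, GGGAATTTCCC, which match kappaB on both strands in overlapping positions and begin 71, 97 and 73 bases before the start. The kappaB motif, searched on both strands over 250 bases before and 50 after each start, was held by 664 of the 10944 tested genes with a promoter in the table (6.1%), and the exact letters GGGAATTTCC or their complement by 16 (0.146%). A match is a description of the sequence and not evidence of binding.

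Of the 5 tested chemokines that attract neutrophils or come from platelets, Cxcl1 alone passed. It read 8.19, 8.25 and 8.08 on the wild-type arrays with R848 and 5.29, 5.19 and 5.77 on the knockout arrays. The lowest wild-type array stood 2.31 above the highest knockout array. The difference was -2.76 ± 0.14 (SE, limma adjusted p = 1.5e-07). With saline, Cxcl1 lay at 4.24 ± 0.07 in wild type and 4.52 ± 0.25 in knockout (SD, n = 3), a difference of 0.28 that did not pass. Every wild-type saline array was dim (4.26, 4.17 and 4.30), and the knockout saline arrays read 4.69, 4.23 and 4.64. A lower level in knockout could therefore hardly show with saline. The interaction, which tests whether the genotype difference depends on R848, was -3.03 ± 0.20 (SE, adjusted p = 4.58e-06).

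Cxcl2, which acts on the same receptor, read 10.10, 10.04 and 9.64 in wild type and 10.07, 9.80 and 9.95 in knockout. Cxcl3 read 10.06, 9.78 and 9.77 in wild type and 9.69, 9.91 and 10.11 in knockout. The groups overlapped for both, with differences of 0.01 and 0.03 ± 0.13 (SE, adjusted p = 0.965 for Cxcl3). Of the other members measured, the platelet chemokines Ppbp and Pf4 had differences of -0.04 and 0.04, and Cxcl5 and Cxcl15 were dim on all arrays, at most 3.94. Of 22 other tested chemokines none passed. Their differences ran from -0.27 (Ccl22, which attracts regulatory T cells) to 0.27 (Cx3cl1), with a median of -0.01 beside -0.02 over all tested genes.

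**Figure D1:**
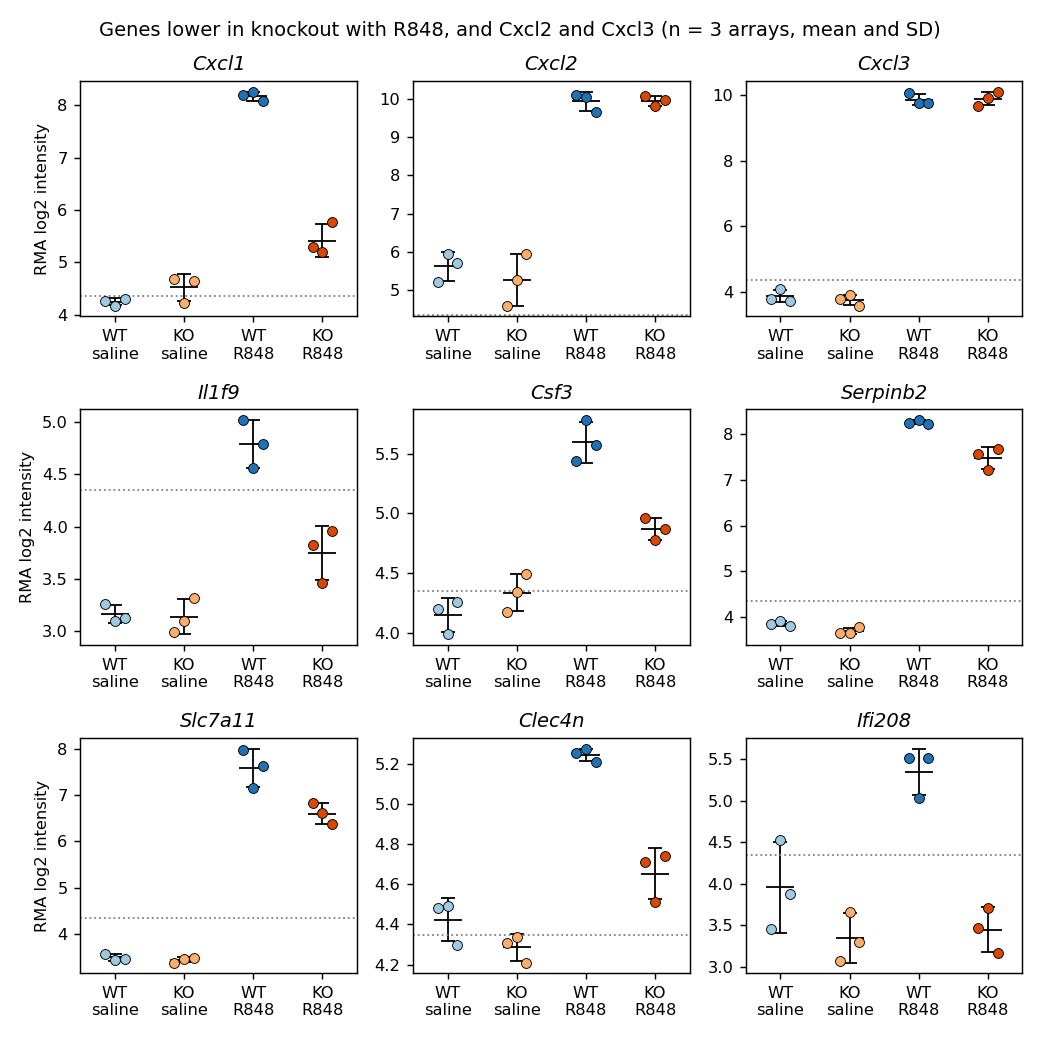
RMA log2 intensity on each array for 7 genes that were lower in knockout cells with R848 and for Cxcl2 and Cxcl3, in wild-type (WT) and knockout (KO) cells with saline or R848. Points are arrays, bars the mean and SD of 3 arrays, and the dotted line the dim limit of 4.35; each panel has its own scale. Cxcl1 with R848 lies at 8.08 to 8.25 in wild type and 5.19 to 5.77 in knockout, while Cxcl2 and Cxcl3 overlap.

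The secreted factors Il1f9 and Csf3 were lower in knockout cells. Il1f9, an interleukin 1 family cytokine also named interleukin 36 gamma, read 5.02, 4.56 and 4.79 in wild type and 3.82, 3.46 and 3.96 in knockout, where every array was dim. The difference was -1.04 ± 0.14 (SE, adjusted p = 0.0029). Csf3, the granulocyte colony-stimulating factor, read 5.44, 5.78 and 5.57 in wild type against 4.96, 4.78 and 4.87 in knockout, without overlap. Its difference was -0.73 ± 0.11 (SE, adjusted p = 0.00758), which missed the threshold without wild-type R848 replicate 2 (adjusted p = 0.0579) or knockout R848 replicate 2 (0.0725). These were 2 of 23 tested inflammatory cytokines and growth factors, where 0.0781% of all tested genes passed as lower. None of the 23 passed as higher. Without overlap of the groups, 7 members were higher and 3 lower. Over all tested genes 5.35% were higher without overlap and 8.46% lower. The median of the list was 0.09. The largest positive differences were in Il15 (0.52), which sustains natural killer cells, and Il18 (0.39), neither past the threshold.

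Serpinb2, an inhibitor of plasminogen activators, read 8.25, 8.31 and 8.23 in wild type and 7.58, 7.21 and 7.67 in knockout. The difference was -0.78 ± 0.10 (SE, adjusted p = 0.0029). It was the single member past the threshold among 24 tested proteases, serpins and coagulation genes, where 0.0781% of all tested genes passed as lower. The median of the list was -0.11 with R848 and -0.11 with saline. With R848 it was -0.05 without wild-type R848 replicate 1, -0.17 without wild-type R848 replicate 3 or knockout R848 replicate 3, and -0.06 after cyclic loess. F3, the tissue factor that starts coagulation, was at -0.66 and the collagenase gene Mmp8 at -0.55, with adjusted p of 0.215 and 0.266, while the heparanase gene Hpse was at 0.59 (adjusted p = 0.226). With saline Hpse was past the threshold (0.80, limma adjusted p = 0.0447).

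Slc7a11, the cystine transporter that feeds glutathione synthesis, was far above its saline level in both genotypes. It read 7.97, 7.14 and 7.63 in wild type with R848 and 6.82, 6.60 and 6.37 in knockout, from saline means of 3.49 and 3.44. The difference of -0.98 ± 0.16 (SE, adjusted p = 0.0214) missed the threshold without wild-type R848 replicate 3 (adjusted p = 0.13) or knockout R848 replicate 2 (0.0962) or 3 (0.112), and in a fit of the 6 arrays alone (0.106). Its interaction of -0.93 did not pass (adjusted p = 0.746). It was the only one past the threshold of 14 tested NRF2 and glutathione genes, where 0.0781% of all tested genes passed as lower. The median of the list was -0.19 with R848 and -0.15 with saline, and with R848 it was -0.12 without knockout R848 replicate 2. Gclm, a subunit of the enzyme that begins glutathione synthesis, was at -0.45, and Hmox1, which degrades heme, at -0.41, each without overlap of the groups but not past the threshold.

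Clec4n, a C-type lectin receptor for fungal mannans, read 5.25, 5.27 and 5.21 in wild type and 4.71, 4.51 and 4.74 in knockout, a difference of -0.59 ± 0.08 (SE, adjusted p = 0.00493). Ifi208, of the PYHIN family of nucleic acid sensors, read 5.51, 5.03 and 5.51 in wild type and 3.47, 3.70 and 3.16 in knockout. All knockout arrays were dim for Ifi208, and the difference was -1.91 ± 0.23 (SE, adjusted p = 0.00208). Ints6l, a relative of a subunit of the Integrator complex, which processes nascent RNA, differed by -0.92 ± 0.13 (SE, adjusted p = 0.00518). It stood at 7.36 to 7.60 in wild type and 6.45 to 6.69 in knockout. With saline it stood at 8.45 and 8.32 (means of 3 arrays), so that R848 minus saline came to -0.95 in wild type and -1.73 in knockout; the interaction did not pass (adjusted p = 0.746). A second, dim row of Ints6l, with a mean of 4.42, had a difference of -0.06. Under a stricter filter on dim rows Clec4n, Ifi208 and Il1f9 were not tested.

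Dkc1 and Uck2, genes for making RNA and nucleotides, passed as lower. Dkc1, the pseudouridine synthase of ribosome and telomerase assembly, read 6.67, 6.52 and 6.52 in wild type and 5.84, 5.77 and 6.07 in knockout, a difference of -0.68 ± 0.08 (SE, adjusted p = 0.00229). Uck2, a kinase of the pyrimidine salvage pathway, read 7.72, 7.72 and 7.47 in wild type and 7.09, 6.41 and 6.86 in knockout, a difference of -0.85 ± 0.14 (SE, adjusted p = 0.0292). The Uck2 call ended in a fit of the 6 arrays (adjusted p = 0.0877), with the replicate number as a block (0.055, or 0.0509 in the 6 arrays) and without 5 single arrays: wild-type saline replicate 3 (0.0513), wild-type R848 replicates 1 (0.123) and 2 (0.195), and knockout R848 replicates 2 (0.0814) and 3 (0.0758). Adss, an enzyme of adenine nucleotide synthesis, was at -0.46 and missed the threshold narrowly (adjusted p = 0.0509).

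These belong to 30 tested genes of ribosome biogenesis and nucleotide supply, of which 2 passed as lower and 0 as higher, where 0.0781% of all tested genes passed as lower. For 18 of the 30 every knockout array lay below every wild-type array, which held for 8.46% of all tested genes. The median was -0.22 beside -0.02 over all tested genes. Members without overlap included the nucleolar proteins Nop58 (-0.35) and Nop56 (-0.33), the pyrimidine enzyme Cad (-0.30) and the serine hydroxymethyltransferase Shmt2 (-0.45), none of them past the threshold. After cyclic loess 12 of the 30 were lower without overlap, beside 5.82% of all tested genes, and the median was -0.18. The mean level of the list lay at 7.26 to 7.34 on the wild-type arrays and 6.94 to 7.13 on the knockout arrays. With saline the median of the list was -0.29, and 3 members passed as lower. In these bulk samples, fewer cells of a kind and less RNA per cell cannot be told apart.

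The largest increases in knockout cells with R848 were in genes that were also higher with saline. Akr1e1, an aldo-keto reductase, read 4.32, 4.08 and 3.89 in wild type and 6.45, 6.52 and 6.90 in knockout, a difference of 2.53 ± 0.17 (SE, adjusted p = 2.62e-06). Wild-type levels were dim. Kcnma1, the pore-forming subunit of the large-conductance potassium channel, read 9.99, 10.23 and 10.09 in wild type and 11.39, 12.49 and 12.36 in knockout, with replicate 1 the lowest of the knockout arrays. Its difference was 1.98 ± 0.26 (SE, adjusted p = 0.0029). With an intensity trend and robust spread Kcnma1 missed the threshold (adjusted p = 0.0631). A second row of Kcnma1 was dim, with a mean of 3.89 over the 12 arrays, and had a difference of -0.01. The rows thus do not agree on the level of this gene or on its difference.

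Erdr1, an erythroid differentiation regulator, and Mid1, a ubiquitin ligase that binds microtubules, lie at the end of the X chromosome that pairs with the Y, so copies on both chromosomes can contribute to their signal. Erdr1 read 9.80, 9.32 and 9.54 in wild type and 11.58, 11.34 and 11.35 in knockout (1.87 ± 0.13, SE, adjusted p = 2.62e-06). Mid1 read 7.50, 7.14 and 7.53 in wild type and 9.85, 9.09 and 8.76 in knockout (1.84 ± 0.22, SE, adjusted p = 0.00206). Second rows of Erdr1 and Mid1 had differences of 1.75 and 1.11. Gdf3, a ligand of the TGF-beta family, read 5.15, 5.22 and 5.20 in wild type and 6.02, 6.19 and 6.17 in knockout, a difference of 0.94 ± 0.11 (SE, adjusted p = 0.00208).

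In wild type, R848 minus saline ran from -0.24 (Kcnma1) to 0.18 (Erdr1) over these 5 genes. In knockout it ran from -0.42 (Akr1e1) and -0.29 (Gdf3) to 0.23 (Mid1), and no interaction passed. With saline the genotype differences were 3.01 for Akr1e1, 1.91 for Kcnma1, 1.99 for Erdr1, 1.52 for Mid1 and 1.25 for Gdf3, all past the threshold. Wwc2, a scaffold protein of the Hippo pathway, and Uck2 were lower in both treatments, Wwc2 by -0.66 ± 0.11 (SE, adjusted p = 0.0245) with R848 and -0.72 with saline. The Wwc2 call with R848 ended without any of 5 single arrays, wild-type R848 replicates 2 and 3 (adjusted p = 0.195 and 0.158) and knockout R848 replicates 1, 2 and 3 (0.0983, 0.0814 and 0.0758). These 7 genes were called in both treatments, in the same direction, which is 36.8% of the 19 called with R848 and 14.9% of the 47 called with saline. The comparisons share no array but share 1 estimate of the spread of each gene. Knockout arrays of the same number deviated together across saline and R848 (residual correlations of 0.27, 0.17 and 0.28 for numbers 1, 2 and 3), so the comparisons are not independent. With genotype and number as a random block all 7 were still called in both.

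**Figure D2:**
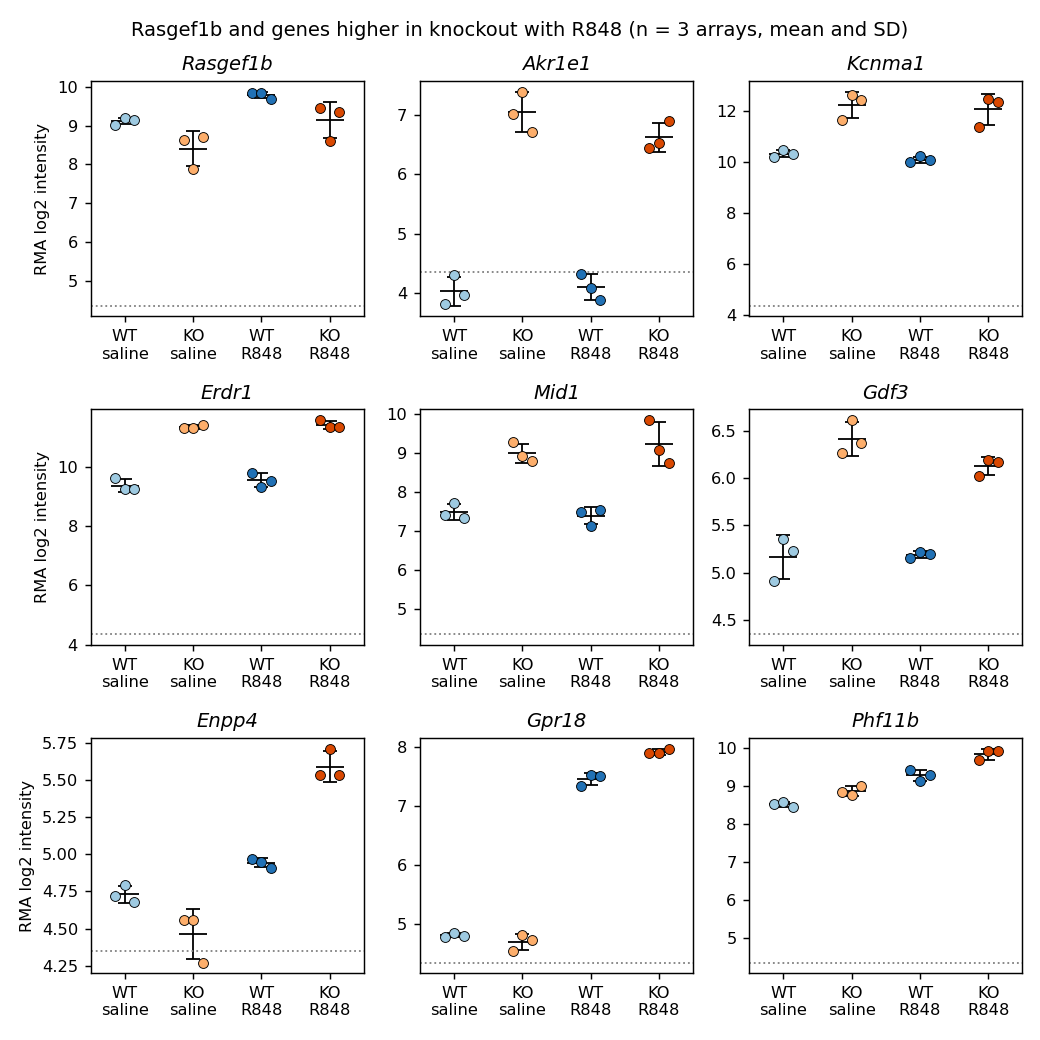
RMA log2 intensity on each array for Rasgef1b and the 8 genes past the threshold as higher in knockout cells with R848, in wild-type (WT) and knockout (KO) cells with saline or R848. Points are arrays, bars the mean and SD of 3 arrays, and the dotted line the dim limit of 4.35; each panel has its own scale. Akr1e1, Kcnma1, Erdr1, Mid1 and Gdf3 are higher in knockout with either treatment, and Enpp4 is higher in knockout at 5.53 to 5.71 with R848.

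The 3 other increases were smaller. Enpp4, an ectonucleotidase on the cell surface, read 4.97, 4.95 and 4.91 in wild type and 5.53, 5.71 and 5.53 in knockout, a difference of 0.65 ± 0.09 (SE, adjusted p = 0.00404). With saline the knockout arrays lay at 4.27 to 4.56 and the wild-type arrays at 4.68 to 4.79, a difference of -0.27 in the other direction that did not pass. The interaction of 0.91 ± 0.12 (SE) passed (adjusted p = 0.0226). It missed the threshold without 9 of the 12 arrays taken singly, every wild-type array and every knockout array with R848, with adjusted p for Enpp4 between 0.0545 and 0.122. Phf11b, a PHD finger protein, read 9.43, 9.13 and 9.30 in wild type and 9.68, 9.94 and 9.92 in knockout (0.56 ± 0.10, SE, adjusted p = 0.0419). Gpr18, a G protein-coupled receptor of leukocytes, read 7.34, 7.53 and 7.52 in wild type and 7.90, 7.90 and 7.98 in knockout (0.46 ± 0.08, SE, adjusted p = 0.0461).

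The calls of Phf11b and Gpr18 were the least stable. Phf11b missed the threshold without 8 of the 12 arrays taken singly, among them wild-type R848 replicates 2 and 3 and knockout R848 replicates 2 and 3, wild-type saline replicates 1, 2 and 3 and knockout saline replicate 1, with adjusted p between 0.0566 and 0.244. Phf11b also missed it with no filter on dim rows (0.0512), in a fit of the 6 arrays (0.1), and with the replicate number as a block over 12 arrays (0.0562) or 6 (0.118). Gpr18 missed it without any array but knockout saline replicates 1 and 2, with adjusted p between 0.0608 and 0.163, after median centring (0.0571), with an intensity trend (0.0573), with no filter (0.0512), in a fit of the 6 arrays (0.0812) and with the block in those 6 (0.0728). Of the 19 genes, 13 passed without each of the 12 arrays in turn, and 9 of these passed in all 11 other settings too.

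Most interferon-stimulated genes had higher values in knockout cells, though none of them passed. Of 36 tested members, 0 passed in either direction by limma, 28 had an unadjusted p under 0.05, all 28 of them higher, and 35 had a positive difference. For 26 of the 36 every knockout array lay above every wild-type array, which held for 5.35% of all tested genes. The median was 0.32 beside -0.02 over all tested genes. The mean level of the list was 8.89, 8.67 and 8.76 on the wild-type arrays with R848 and 9.01, 9.19 and 9.07 on the knockout arrays, without overlap. Rescaling by median centring gave a median of 0.30 and cyclic loess 0.37. Without each of the 6 arrays in turn the median was 0.25 to 0.39, with 26 to 32 members higher without overlap. With an array left out, 8.11% to 10.3% of all tested genes were higher without overlap.

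Ifit2, which restrains viral translation, read 7.06, 6.65 and 6.72 in wild type and 7.34, 7.47 and 7.32 in knockout (0.57 ± 0.11, SE, adjusted p = 0.0726). Oasl1, an oligoadenylate synthase-like protein, was at 0.63, Gbp3, a guanylate-binding protein, at 0.55 and the immunity-related GTPase Iigp1 at 0.66 with overlapping groups. Mx1, which traps viral nucleocapsids, read 8.69, 8.19 and 8.40 in wild type and 8.81, 9.20 and 8.83 in knockout, a difference of 0.52. The transcription factors Irf7 and Stat2, which drive these genes, were at 0.38 and 0.39. The single negative member was Ifitm3 at -0.05. With saline the list had a median of 0.30, with 4 members past the threshold as higher, Mx1, Ifit1, Stat2 and Rsad2.

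Several genes outside the list ranked near the top of the increases without passing. They were Lipg, the endothelial lipase (0.73, adjusted p = 0.0509), Phf11a, of the same family as Phf11b (0.63, adjusted p = 0.0509), Tnfsf10, the death ligand TRAIL (0.65), Parp11, a mono-ADP-ribosyltransferase (0.47), the nuclear body protein gene Sp110 (0.41) and S100a9, a calcium-binding protein of myeloid cells (0.47). S100a9 was also the one of 4 tested neutrophil markers whose groups did not overlap. The mean level of these 4 markers was 5.80 to 5.90 on the wild-type arrays and 5.98 to 6.03 on the knockout arrays, with Ly6g, Mpo, Camp and S100a8 dim on all arrays, and its part in the other differences was not tested. The 7 tested dendritic cell markers had mean levels of 5.51 to 5.52 in wild type and 5.54 to 5.62 in knockout, with a median difference of 0.01, and none passed.

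Promoter stretches are shown for the 3 genes past the threshold that hold an interferon-stimulated response element (ISRE), because Phf11b and Gpr18 were higher in knockout and Ifi208 lower. Capitals mark the match to the element, GAAA, any 2 bases, then GAAA, searched on both strands, with 25 bases on either side, from RefSeq build GRCm38.p6. The stretches lie at chr14:59341346-59341405 and chr14:121915895-121915954 on the minus strand and at chr1:173673582-173673641 on the plus strand, in that order.
Phf11b: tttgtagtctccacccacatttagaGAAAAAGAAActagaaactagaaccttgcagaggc
Gpr18: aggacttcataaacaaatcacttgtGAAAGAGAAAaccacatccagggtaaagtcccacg
Ifi208: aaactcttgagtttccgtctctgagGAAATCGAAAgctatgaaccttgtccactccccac
The matches begin 50, 41 and 58 bases before the start. The element was held by 2 of the 6 genes past the threshold as higher and 1 of the 9 as lower that have a promoter in the table, by 18 of 27 interferon-stimulated genes (66.7%), and by 418 of 10944 tested genes (3.8%).

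None of 24 tested antigen presentation and co-stimulation genes passed. For 11 the groups did not overlap, all 11 higher in knockout, which held for 5.35% of all tested genes, and the median was 0.15. Nlrc5, the activator of class I histocompatibility genes, was at 0.44, the class I genes H2-Q5 and H2-Q4 at 0.44 and 0.36, and the class II chain H2-Ab1 at 0.41. H2-Q5 read 7.04, 6.98 and 6.90 in wild type and 7.40, 7.44 and 7.41 in knockout, while a second row of H2-Q5 had a difference of 0.28. A second row of H2-Q4, with a mean of 5.50, had a difference of 0.05. With saline the median of the list was 0.16, and H2-Q5 (0.90) and H2-Q4 (0.49) were past the threshold. Genes of this family are alike in sequence, so probes can be shared between them.

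Lists of metabolism and cell division genes had medians below 0, with R848 and with saline. With saline the medians were -0.22 for glycolysis and hypoxia, -0.28 for cholesterol and fatty acid synthesis and -0.25 for DNA replication and mitosis. In that order, 2, 0 and 2 members passed as lower with saline. The values below are with R848 unless stated. None of 18 tested glycolysis and hypoxia genes passed, but for 10 the knockout arrays all lay below the wild-type arrays, which held for 8.46% of all tested genes, and the median was -0.16. Pkm, the pyruvate kinase, read 11.15, 11.04 and 11.09 in wild type and 10.75, 10.77 and 10.77 in knockout (-0.33 ± 0.07, SE, adjusted p = 0.0968). Pgk1, phosphoglycerate kinase, was at -0.36 and was past the threshold with saline (-0.44). Under each scaling and without each of the 6 arrays in turn, the glycolysis median stayed between -0.20 and -0.11.

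All 21 tested genes of cholesterol and fatty acid synthesis had a negative difference, as did 57.9% of all tested genes. The median was -0.26, with 0 past the threshold and 7 lower without overlap, beside 8.46% of all tested genes. The mean level of this list was 7.55 to 7.73 in wild type, 7.53 on knockout replicates 1 and 2 and 7.01 on knockout replicate 3, and without that replicate the median was -0.08. After cyclic loess 1 member was lower without overlap, beside 5.82% of all tested genes. Scd1, a fatty acid desaturase, had the largest difference of the list, -0.80, with overlapping groups. Among 29 tested DNA replication and mitosis genes the median was -0.32, with 7 lower without overlap and 0 past the threshold. Bub1, a kinase of the spindle checkpoint, was at -0.57 and the helicase subunit Mcm3 at -0.49. Their mean level was 6.46, 6.68 and 6.64 in wild type and 6.37, 6.13 and 6.49 in knockout, and the number without overlap was 22 without wild-type replicate 1 and 18 without knockout replicate 3. With these arrays left out, 15.2% and 16.1% of all tested genes were lower without overlap, beside 8.46% with all 6 arrays. Without knockout replicate 2 the median of the list was -0.21. Near the threshold but not past it were Sfxn1, a mitochondrial serine transporter (-0.39, adjusted p = 0.0645), and Sdc1, the proteoglycan syndecan (-0.38, adjusted p = 0.088).

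**Figure D3:**
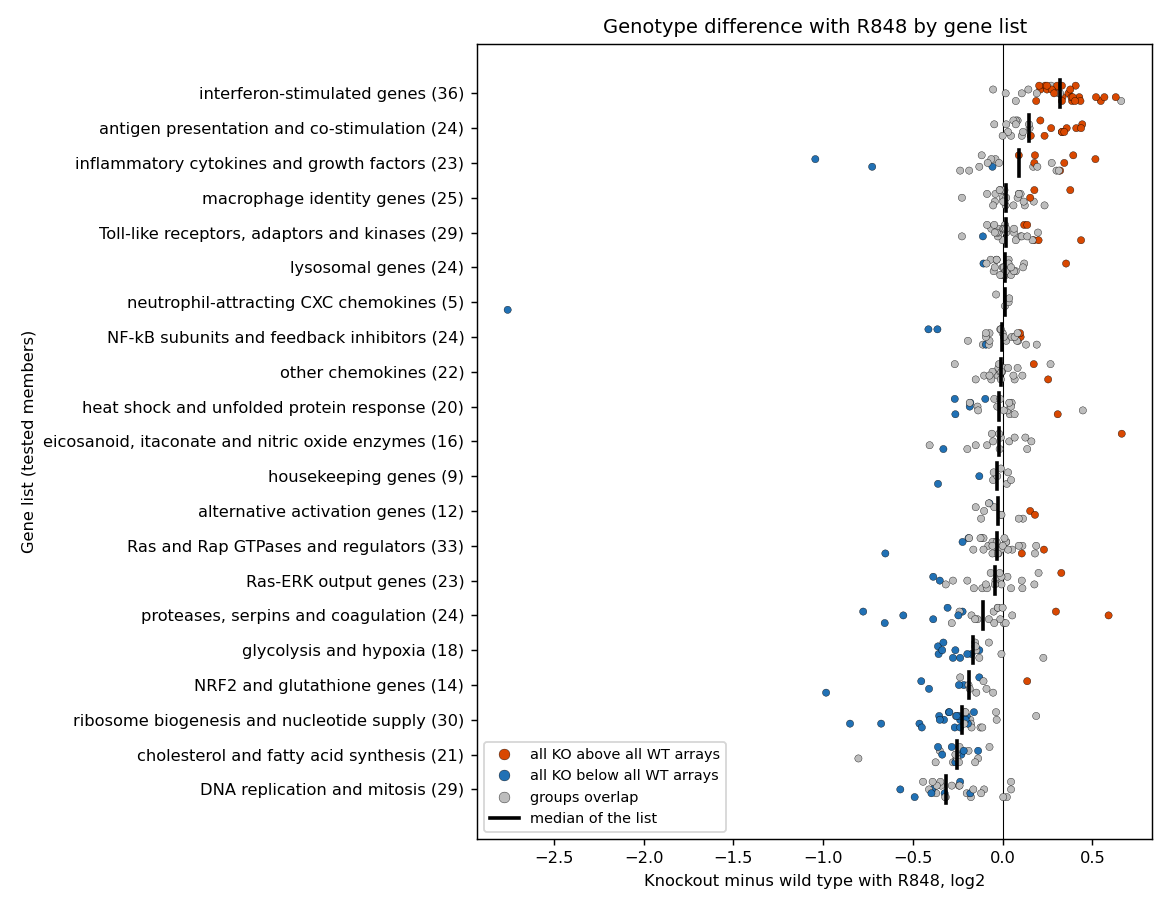
Difference of each tested member (points; knockout minus wild type with R848, log2) for 21 gene lists, with the number of tested members in brackets and the median as a bar. Orange members have all knockout arrays above all wild-type arrays, blue members all below, and grey members overlap. Interferon-stimulated genes have the highest median at 0.32 and DNA replication and mitosis genes the lowest at -0.32.

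No gene of the signalling pathway that R848 engages passed. Of 29 tested Toll-like receptors, adaptors and kinases and of 24 tested NF-kB subunits and feedback inhibitors, none passed, with medians of 0.02 and 0.00. Tlr3, the receptor for double-stranded RNA and itself raised by interferon, was at 0.44, and the NF-kB inhibitors Nfkbid and Ier3 at -0.41 and -0.36, none past the threshold. Among 33 tested GTPases of the Ras and Rap families and their exchange factors and activating proteins, Rasgef1b had the largest difference. The others ran up to 0.23 (Rasgrp1) and down to -0.22 (Rapgef6), and the median was -0.03. Of 23 tested Ras-ERK output genes none passed, the median was -0.04, and Fosl2, an AP-1 subunit, was at -0.35 and Dusp5, an ERK phosphatase, at 0.33. The signs of the medians of these 3 lists with values near 0 depended on the scaling for NF-kB genes (0.05 after cyclic loess) and for Ras and Rap genes (0.02), and stayed negative for Ras-ERK output genes (-0.02).

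In position, Cxcl1 lay 36 tested genes from Rasgef1b on chromosome 5. Of the 100 tested genes nearest to Rasgef1b, 50 on either side in RefSeq order, Cxcl1 was the only one past the threshold. Their median difference was 0.00, and 13 were higher and 4 lower without overlap, beside 5.35% and 8.46% of all tested genes. After Cxcl1 the largest differences were those of Hpse (0.59), 12 tested genes away, and Pramel34 (0.57), 10 away on the other side. Bmp3, the tested gene next to Rasgef1b on the side of Cxcl1, was at 0.16 (adjusted p = 0.694). Hpse was past the threshold with saline (0.80, limma adjusted p = 0.0447). So was Septin11 (-0.39, limma adjusted p = 0.034), 14 tested genes from Rasgef1b on the side of Cxcl1. With saline 0.334% of all tested genes passed. Of the 19 genes past the threshold, 4 lay on the X chromosome (Dkc1, Erdr1, Ints6l and Mid1), among 428 tested there (0.935%). On chromosome 14 there were 3 (Gpr18, Kcnma1 and Phf11b), among 493 (0.609%). Chromosome 1 also held 3 (Ifi208, Serpinb2 and Uck2), among 806 (0.372%), and chromosome 6 held 2 (Clec4n and Gdf3), among 692 (0.289%). Over all tested genes the share past the threshold was 0.135%.

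**Figure D4:**
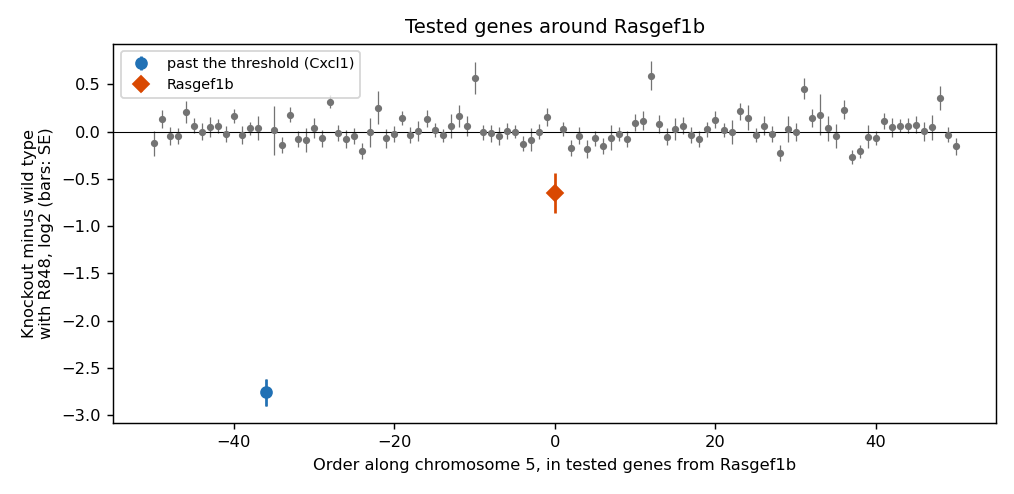
Difference with R848 (knockout minus wild type, log2; bars are limma's SE) of the 100 tested genes nearest to Rasgef1b, in their order along chromosome 5 counted in tested genes from Rasgef1b. Cxcl1 at -2.76 is the only one past the threshold, and Rasgef1b is at -0.65.

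Over all genes, 19 of 14079 (0.135%) passed with R848, and 7 of them differed at least 2-fold: Akr1e1, Kcnma1, Erdr1 and Mid1 as higher and Cxcl1, Ifi208 and Il1f9 as lower. The smallest difference past the threshold was 0.46 in size. At an unadjusted p under 0.05 there were 1230 genes. For 1944 (13.8%) the groups did not overlap, 753 higher and 1191 lower. After cyclic loess 27 genes passed, 16 higher and 11 lower, in place of 8 and 11. With saline 47 genes (0.334%) passed, 20 higher (0.142%) and 27 lower (0.192%).

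Of the 12 genes called with R848 and not with saline, the difference between treatments itself passed for Cxcl1 and Enpp4. For the other 10 it did not. The largest of these interactions were those of Ifi208 (-1.30), Il1f9 (-1.02, adjusted p = 0.277), Slc7a11 (-0.93) and Csf3 (-0.91, adjusted p = 0.127). Of all tested genes 2 (0.0142%) had an interaction past the threshold, 1 in each direction (0.0071%), so for most genes called with R848 alone these data do not show that the genotype difference depended on R848.

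**Figure D5:**
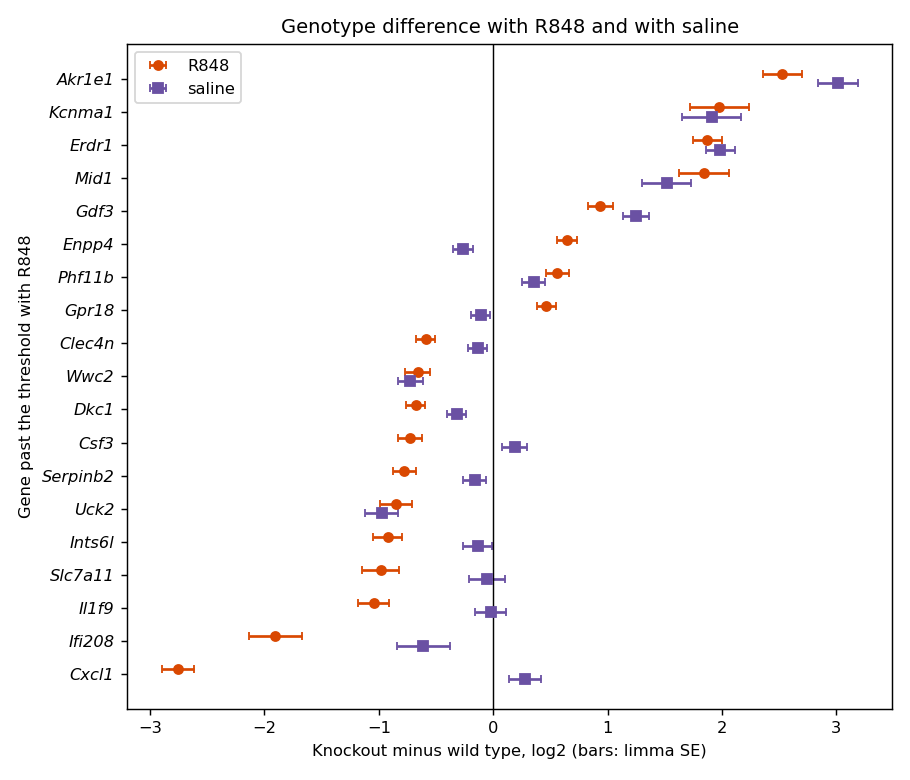
Genotype difference (knockout minus wild type, log2; bars are limma's SE) of the 19 genes past the threshold with R848, with R848 (circles) and with saline (squares). Akr1e1, Kcnma1, Erdr1, Mid1, Gdf3, Uck2 and Wwc2 were past the threshold in both treatments, while Cxcl1 is at -2.76 with R848 and 0.28 with saline.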

How the data were processed

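RNA of the 12 samples was hybridized to Affymetrix Mouse Gene 2.1 ST arrays, per the labels' protocols. The deposited values are log2 intensities made by the authors with Affymetrix Expression Console and RMA, per the submitters' processing notes. RMA comprises background correction and quantile normalization. Software versions: not given in the sources used here. RMA gives all arrays nearly the same distribution (array medians between 4.49 and 4.57), so a change in total RNA per cell is not visible.

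Of 34472 rows, 23521 had 1 symbol in the platform table, and the row with the highest mean over the 12 arrays stood for each symbol. Genes above the 40th percentile (4.31 to 4.35) on at least 3 arrays were tested, 14079 in all. All 12 arrays entered limma 3.58.1 in R 4.3.3 (lmFit, eBayes, a mean per group, no covariate), with Benjamini-Hochberg adjustment and a threshold of 0.05. Every adjusted p is from limma. The number of arrays limits the precision. Members and gene lists were chosen with earlier results of these data known. Named genes were the 15 largest increases and decreases past the threshold, those with the smallest p where fewer passed, up to 4 of each list, and Rasgef1b and Cxcl1 to Cxcl3; Tlr7, Tlr8, Myd88, Mx1, Irf7, Stat2, some list members and neighbours of Rasgef1b were named after their values were seen. Motifs were searched in RefSeq promoters.

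Replicate numbers did not pair wild type with knockout throughout. Residual correlations for numbers 1, 2 and 3 were 0.33, 0.00 and 0.10 with R848 and 0.12, -0.12 and 0.14 with saline. The best match in the other genotype had the same number for number 1 with R848, and for numbers 1 and 3 with saline. Between saline and R848 of 1 genotype the correlations were 0.27, 0.17 and 0.28 in knockout, so the numbers pair these arrays, and 0.25, -0.06 and 0.23 in wild type. The fit has no block; blocks of genotype and number were added as alternatives after seeing the data. Alternatives covered spread moderation, filters, scaling, array weights, the arrays fitted, the replicate block, all rows, and each array left out. Simulated data for knockout against wild type with R848 held 14079 genes, 200 of them changed. Of the changed genes, 79.5% were recovered at a change of 0.5 and 100% at a change of 1, with 4 and 11 unchanged genes called. Recovery with fewer changed genes was not tested and can be lower, because the adjustment depends on how many genes change.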

Additional observations from a re-analysis of the deposited data

Results flagged for a closer look

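The measured genotype difference of Cxcl1 differed between the treatments: the interaction was -3.03 (limma adjusted p = 4.58e-06), from 0.28 with saline to -2.76 with R848. Every wild-type saline array was dim for Cxcl1, so a lower level in knockout could hardly show with saline. For Enpp4 the interaction was 0.91 (adjusted p = 0.0226), from -0.27 with saline to 0.65 with R848, and it missed the threshold without 9 of the 12 arrays taken singly.

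Among 5174 rows with several or no gene symbol in the platform table, which no comparison above uses, 10 passed the threshold for knockout against wild type with R848. All 10 were higher in knockout, with differences from 0.77 to 2.31, and they held 7 distinct sets of values. The 1 row among them with 2 symbols names the class I genes H2-Q6 and H2-Q8 (0.77 ± 0.12, SE, adjusted p = 0.0348), and read 7.68, 7.44 and 7.32 in wild type and 8.10, 8.35 and 8.29 in knockout.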

How the results depend on the processing

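The number of genes past the threshold with R848, 19, was 17 to 28 in 10 of the 11 settings that keep all arrays or the 6 compared, and 13 to 25 with each of the 12 arrays left out. With the replicate number as a block it was 21 over 12 arrays, and 36 in the 6 arrays compared, 16 of them shared with the 19. Numbers did not pair wild type with knockout throughout. Genotype and number as a random replicate block, which joins saline and R848 arrays and was chosen after seeing the data, gave 21 with R848, 50 with saline and 2 interactions, and as a fixed block 2 interactions, Cxcl1 and Enpp4 in both. For the genes past the threshold with saline, 47 became 31 without a filter, 8 in the 6 arrays compared, 99 with the replicate block, 14 with the block in the 6 arrays, and 10 to 65 with each array left out. The 2 interactions became 1 to 2 with each array left out; Cxcl1 passed in every case, and Enpp4 missed the threshold without 9 of the 12 arrays. No gene past the threshold changed direction. Phf11a passed in 8 and Lipg in 5 settings with all arrays or the 6 compared. List medians and counts under other scalings and left-out arrays were chosen after seeing the data. Dim rows limit Il1f9, Ifi208 and Akr1e1, whose differences may be understated. They also limit Cxcl1 with saline, where every wild-type array was dim.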

Other observations

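Further groups held no gene past the threshold with R848. Of 16 tested eicosanoid, itaconate and nitric oxide enzymes none passed; Nos2, the inducible nitric oxide synthase, read 9.19, 9.05 and 9.21 in wild type and 10.07, 9.71 and 9.66 in knockout (0.66, adjusted p = 0.426), and Ptges, which makes prostaglandin E, was at -0.41 with overlapping groups. Of 24 lysosomal genes, 25 macrophage identity genes and 12 alternative activation genes none passed, with medians of 0.01, 0.02 and -0.03; Ctsh, a cathepsin, was at 0.35 and Siglec1, a sialic acid receptor, at 0.38. Among 20 heat shock and unfolded protein response genes none passed and the median was -0.02, with the chaperone genes Hspd1 at -0.27 and Hspa1a at 0.31. Without overlap, 5 of the 20 were lower and 1 higher, beside 8.46% and 5.35% of all tested genes. The 9 tested housekeeping genes had a median of -0.03, with Pgk1 at -0.36.

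Genes with the smallest interaction p that did not pass were Dusp5 (0.77), Gpr18 (0.57), Mybl2 (0.51) and Cytip (0.61) on the higher side, and Csf3, Rps15a-ps5 (-0.50), Il1f9 and Acad12 (-0.48) on the lower side. Mybl2, a transcription factor of proliferating cells, was at -0.63 with saline, past the threshold, and at -0.12 with R848.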
